A study of Mus musculus with 6 samples.

Results

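Casp1, the caspase that inflammasomes activate, was measured with 8 other genes of the inflammasome and of the IL-33 and IL-13 receptor systems in 3 mouse endothelial cell lines. The 9 genes were Casp1, Casp4, Pycard, Nlrp3, Gsdmd, Il18, Il33, Il1rl1 and Il13ra2. A gene was taken where a probe set carried its symbol and no other. By that rule 8 of the 9 were measured, each by 1 probe set, among 19936 genes in all. Il1rl1, which encodes the IL-33 receptor ST2, was not analysed here. For genes with several probe sets the rule takes the highest mean over the 6 arrays, which left nothing to choose here. The members had been listed with earlier results of these data known. Casp1, Il33 and Il13ra2 were chosen by their measured differences in log2 signal between the lines, so those differences are given as a description, with no test. The other 5 measured members, Casp4, Pycard, Nlrp3, Gsdmd and Il18, were tested.

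The lines are endothelial cells derived from mouse embryonic stem cells. The VE+N-labelled line is labelled as expressing both VE-cadherin and N-cadherin, the VE-labelled line as expressing VE-cadherin, and the N-labelled line as expressing N-cadherin. Seeding was at 50000 cells per square centimetre, growth lasted 72 h in 20% serum, and a serum-free step of 18 to 20 h with 1% albumin preceded RNA extraction in all 3. There were 2 Affymetrix whole-transcript arrays for each line, and each cadherin state is 1 line. The labels number the arrays of a line as biological replicates from separate RNA extractions but do not say whether these came from separate cultures, so the p-values measure the spread between these extracts, which may be technical. A difference that belongs to the cadherins and any other difference between the lines cannot be told apart. In bulk RNA, fewer cells of a type and less RNA per cell cannot be told apart either.

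All values are log2 signals, so a difference of 1 is a 2-fold change, and no gene's level is set against another's because probe sets differ in brightness. With no detection call in the values, the 95th percentile of 1205 probe sets of olfactory and vomeronasal receptor genes, which lay between 4.18 and 4.30 on the 6 arrays, served as a low-signal reference. Cdh2, the N-cadherin gene, was at 6.69 and 6.70 on the VE+N-labelled arrays, 5.80 and 5.93 on the VE-labelled arrays, and 7.66 and 7.67 on the N-labelled arrays. Cdh5, the VE-cadherin gene, was at 7.05 and 7.16 on the VE+N-labelled arrays, 7.05 and 6.83 on the VE-labelled arrays, and 7.26 and 7.30 on the N-labelled arrays. Its probe set was thus not higher in the lines labelled for VE-cadherin, and the lines are called by their labels throughout. All 14 endothelial markers examined, among them Pecam1 and Kdr, were above the low-signal reference on all 6 arrays.

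Inflammasomes are protein complexes that assemble in the cytosol when a sensor such as NLRP3 meets a sign of infection or damage. The adaptor ASC, encoded by Pycard, links the sensor to caspase-1, which then cuts the precursors of IL-1β and IL-18 and the pore-forming protein gasdermin D, and the cell may die by pyroptosis. Caspase-11, encoded by Casp4 in mice, senses bacterial lipopolysaccharide in the cytosol and also cuts gasdermin D. IL-33 is a nuclear cytokine of the IL-1 family, stored in endothelial and epithelial cells and released as an alarm signal when they are damaged. It acts through ST2 and promotes type 2 immunity, of which IL-13 is an effector, and IL-13Rα2 is a receptor that binds IL-13 and is best known as a decoy.

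The measured members fell into 2 sets. Casp1, Il33 and Il13ra2 were high in both VE+N-labelled and VE-labelled cells and at or near the low-signal reference in the N-labelled cells. Each of the other 5 genes spanned less than 1 log2 unit over the 6 arrays.

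**Figure D1:**
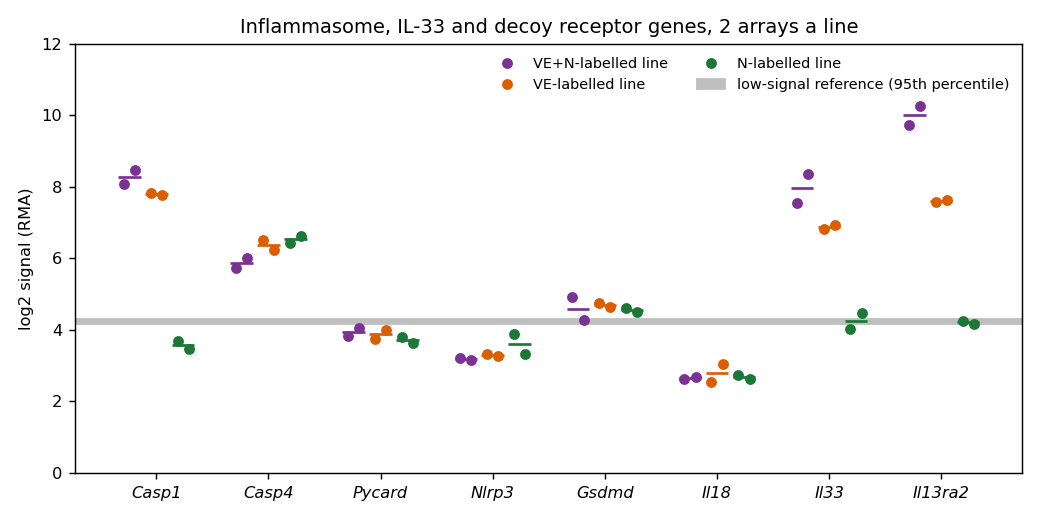
Log2 signal of the 8 measured genes (horizontal axis) on each of the 6 arrays (points), with the mean of each line (short bars); the grey band spans the low-signal reference of the 6 arrays. Casp1, Il33 and Il13ra2 separate the N-labelled line from both others, while Pycard, Nlrp3 and Il18 lie under the band on every array.

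Casp1 had log2 signals of 8.08 and 8.46 on the VE+N-labelled arrays, 7.82 and 7.78 on the VE-labelled arrays, and 3.69 and 3.48 on the N-labelled arrays. Both N-labelled arrays were under the low-signal reference, and no array of the other lines came near it. Casp1 was higher by 4.69 ± 0.145 (SE, 2 arrays a line) in VE+N minus N and by 4.22 ± 0.145 in VE minus N. With the N-labelled arrays set at the reference, it was at least 16.4-fold higher in VE+N-labelled cells and at least 11.9-fold higher in the VE-labelled line than in the N-labelled line. In VE+N minus VE it was higher by 0.47 ± 0.145, and this small difference shrank to 0.28 without VE+N replicate 2.

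Casp4 lies next to Casp1 in gene order on chromosome 9, and it did not share the pattern. It had signals of 5.74 and 6.02 on the VE+N-labelled arrays, 6.51 and 6.23 on the VE-labelled arrays, and 6.45 and 6.63 on the N-labelled arrays. All 6 arrays were above the low-signal reference, the VE+N-labelled arrays were the lowest, and the VE-labelled and N-labelled arrays overlapped. Casp4 fell by 0.66 ± 0.144 in the VE+N-labelled line against the N-labelled line (limma adjusted p = 0.0146). Leaving out VE+N replicate 1 (adjusted p = 0.0716) or N replicate 2 (adjusted p = 0.0939) ended that call, as did the methods' analysis of variance with Benjamini-Hochberg adjustment (adjusted p = 0.152), and over all alternatives adjusted p ran from 0.0044 to 0.152. The difference was −0.17 for the VE-labelled against the N-labelled line (adjusted p = 0.529, 95% interval −0.51 to 0.16) and −0.49 for the VE+N-labelled against the VE-labelled line (adjusted p = 0.0766, interval −0.82 to −0.16 before adjustment). The last passed with the dimmest 50% of genes left out (adjusted p = 0.0282) and with a trended robust prior (adjusted p = 0.0395).

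The sensor and adaptor genes were dim in every line. Pycard had signals of 3.83 and 4.06 on the VE+N-labelled arrays, 3.76 and 4.00 on the VE-labelled arrays, and 3.81 and 3.65 on the N-labelled arrays. All 6 were under the low-signal reference, and the VE-labelled arrays overlapped those of both other lines. Nlrp3 had signals of 3.21 and 3.16 on the VE+N-labelled arrays, 3.33 and 3.27 on the VE-labelled arrays, and 3.88 and 3.33 on the N-labelled arrays. They too were all under the reference, and N replicate 1 stood above the other 5 arrays. Nlrp3 differed by −0.42 ± 0.167 between the VE+N-labelled and N-labelled lines (adjusted p = 0.135) and by −0.31 ± 0.167 between the VE-labelled and N-labelled lines (adjusted p = 0.303). Both passed when N replicate 2 was left out, which keeps only the higher N-labelled array (adjusted p = 0.0156 and 0.0416), and such differences lie among values under the reference.

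Gasdermin D and IL-18 are substrates of caspase-1. Gsdmd, the pore former, had signals of 4.91 and 4.27 on the VE+N-labelled arrays, 4.74 and 4.65 on the VE-labelled arrays, and 4.61 and 4.51 on the N-labelled arrays. It was above the low-signal reference on all 6 arrays, with its highest and lowest values both in the VE+N-labelled line. The Gsdmd difference was 0.13 for the VE-labelled against the N-labelled line (95% interval −0.31 to 0.57) and 0.02 for the VE+N-labelled against the N-labelled line (interval −0.41 to 0.46). Il18, a cytokine that caspase-1 matures, had signals of 2.62 and 2.69 on the VE+N-labelled arrays, 2.55 and 3.04 on the VE-labelled arrays, and 2.74 and 2.63 on the N-labelled arrays. All were under the reference and all 3 lines overlapped. The intervals of the Il18 differences were −0.26 to 0.48 for the VE-labelled and −0.40 to 0.34 for the VE+N-labelled line against the N-labelled line. They are intervals of a signal under the reference and set no limit on the transcript.

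Of the 5 tested members, limma called 1 lower (Casp4) and 0 higher in VE+N minus N, where 19.1% of all genes were called, 10.2% higher and 8.91% lower. It called 0 of 5 in VE minus N, where 15.4% of all genes were called, 8.46% higher and 6.99% lower. It called 0 of 5 in VE+N minus VE, where 10.1% of all genes were called, 4.29% higher and 5.84% lower. At an unadjusted p under 0.05 the counts were 2, 0 and 1 in that order, and the methods' analysis of variance with adjustment called 0 of them in any comparison. The median difference of the 5 was −0.03 for VE+N minus N, against −0.004 over all genes, 0.11 for VE minus N, against −0.02 over all genes, and −0.11 for VE+N minus VE, against 0.03 over all genes. The comparisons share arrays, those of the N-labelled line in VE+N minus N and VE minus N.

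**Figure D2:**
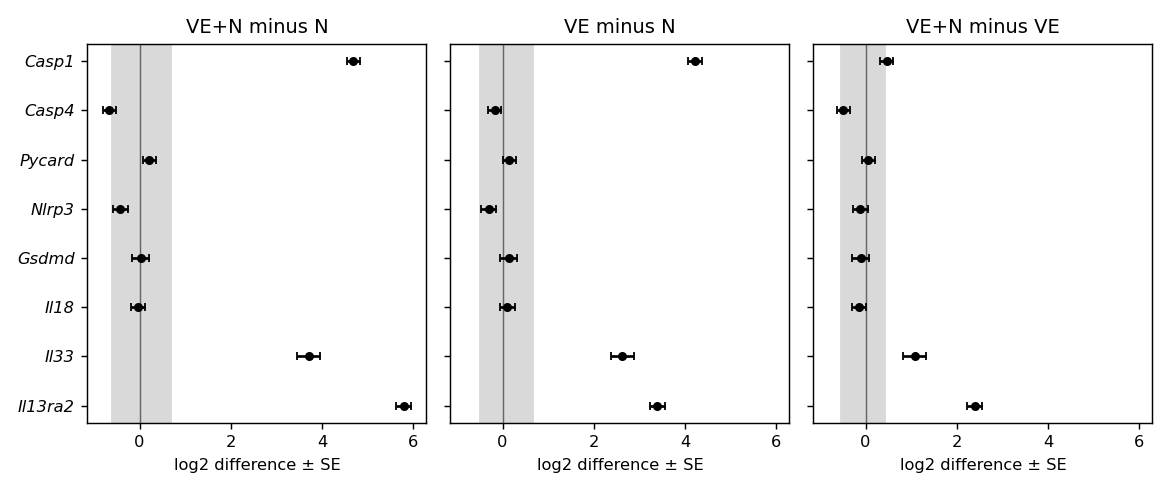
Log2 difference (horizontal axis, points with SE bars) of each measured gene in VE+N minus N, VE minus N and VE+N minus VE; the grey band runs from the 5th to the 95th percentile of 19936 genes. Casp1, Il33 and Il13ra2 lie right of the band in all 3 panels, and Casp4 lies just left of it in VE+N minus N.

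Il33 followed a graded pattern. It had log2 signals of 7.56 and 8.35 on the VE+N-labelled arrays, 6.82 and 6.94 on the VE-labelled arrays, and 4.03 and 4.48 on the N-labelled arrays. The lines did not overlap, the order was VE+N-labelled, VE-labelled, N-labelled, and 1 of the 2 N-labelled arrays was under the low-signal reference. Il33 was higher by 3.70 ± 0.248 in the VE+N-labelled and by 2.63 ± 0.248 in the VE-labelled line than in the N-labelled line. The step of 1.08 ± 0.248 between the VE+N-labelled and VE-labelled lines was less secure, since the VE+N-labelled arrays had an SD of 0.556. It was 0.69 without VE+N replicate 2 and 1.47 without VE+N replicate 1.

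Il13ra2 showed the same order with wider steps. It had signals of 9.74 and 10.26 on the VE+N-labelled arrays, 7.58 and 7.62 on the VE-labelled arrays, and 4.25 and 4.18 on the N-labelled arrays. The lines did not overlap, and the N-labelled arrays lay on either side of the low-signal reference. The differences were 5.79 ± 0.163 for VE+N minus N, 3.39 ± 0.163 for VE minus N and 2.40 ± 0.163 for VE+N minus VE, and those against the N-labelled line rest on N-labelled values at the reference. The step between the VE+N-labelled and VE-labelled lines lay between 2.14 and 2.66 whichever array was left out.

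Among the 5 tested members, both arrays of the first line were above both of the second for 1 and below for 2 in VE+N minus N, above for 1 and below for 1 in VE minus N, and above for 0 and below for 2 in VE+N minus VE. Casp1, Il33 and Il13ra2 were above in all 3, as their choice implies. In VE+N minus N it held for 55.1% of all genes, 27.6% higher and 27.5% lower. In VE minus N it held for 57.3%, 26% higher and 31.2% lower, and in VE+N minus VE for 49.5%, 28.6% higher and 21% lower.

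The sequences upstream of the start sites of Casp1, Casp4, Il33 and Il13ra2 are shown because Casp1, Il33 and Il13ra2 shared a pattern and Casp4 is the neighbour that did not. They are the 250 bases before the first listed start in RefSeq on GRCm38.p6, with Casp1 at chr9:5298267-5298516 (plus strand), Casp4 at chr9:5308599-5308848 (plus strand), Il33 at chr19:29924863-29925112 (plus strand) and Il13ra2 at chrX:147429193-147429442 (minus strand), each printed 5′ to 3′ on the gene's strand with the matches to any searched motif in capitals.
Casp1: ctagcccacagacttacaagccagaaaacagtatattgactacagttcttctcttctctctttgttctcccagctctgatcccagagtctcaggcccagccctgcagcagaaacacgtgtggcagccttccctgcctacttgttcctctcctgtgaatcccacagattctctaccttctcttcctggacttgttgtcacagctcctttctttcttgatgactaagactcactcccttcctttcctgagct
Casp4: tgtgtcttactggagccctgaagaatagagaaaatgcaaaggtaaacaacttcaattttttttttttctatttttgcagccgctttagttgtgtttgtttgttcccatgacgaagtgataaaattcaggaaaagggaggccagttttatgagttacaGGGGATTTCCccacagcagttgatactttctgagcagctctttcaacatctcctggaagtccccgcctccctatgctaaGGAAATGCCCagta
Il33: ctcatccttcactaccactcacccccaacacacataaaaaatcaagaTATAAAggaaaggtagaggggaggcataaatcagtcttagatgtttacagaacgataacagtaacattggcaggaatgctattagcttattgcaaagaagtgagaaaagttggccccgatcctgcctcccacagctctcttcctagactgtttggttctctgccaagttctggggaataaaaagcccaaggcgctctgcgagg
Il13ra2: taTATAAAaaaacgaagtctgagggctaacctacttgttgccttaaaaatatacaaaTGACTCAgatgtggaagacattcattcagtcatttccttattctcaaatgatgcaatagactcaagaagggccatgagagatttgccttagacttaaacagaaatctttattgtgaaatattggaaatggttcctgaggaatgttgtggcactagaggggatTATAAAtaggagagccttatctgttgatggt
The motifs searched, on both strands, were the core of the interferon-stimulated response element (GAAA and GAAA with 2 bases between), an NF-kB form (GGG and TTTCC with 2 bases between), the AP-1 site TGANTCA, the STAT site TTCNNNGAA and the TATA box TATAAA, and no matches overlapped. Casp4 held 2 NF-kB matches, 1 on each strand, a motif found in 1.41% of 32851 promoter entries. Il13ra2 held 1 AP-1 match (6.75% of entries) and 2 TATA box matches (12.4% of entries), the nearer of them 31 to 26 bases before the start. Il33 held 1 TATA box match here, far from the start at 203 to 198 bases, and another at 29 to 24 bases before its second listed start. The Casp1 window held none of the 5 motifs, so no motif was shared by Casp1, Il33 and Il13ra2. A match is a run of letters and not a shown binding site. RefSeq's table held entries for 8 of the 9 members.

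Position on the chromosome was examined next, over the 5 nearest measured genes on each side of each of the 3 high genes, a choice made after their values were seen. Around Casp1 the counts called were near the shares over all genes, 19.1% in VE+N minus N and 15.4% in VE minus N. There, 1 of 10 neighbours rose in the VE+N-labelled line against the N-labelled line and 1 fell, and 1 rose and 0 fell in the VE-labelled line. The riser was Casp12 in both, a caspase of the inflammatory subfamily that follows Casp4 in gene order. Casp12 had signals of 6.12 and 6.66 on the VE+N-labelled arrays, 7.18 and 7.24 on the VE-labelled arrays, and 4.60 and 5.07 on the N-labelled arrays. It rose by 1.56 ± 0.203 in the VE+N-labelled (adjusted p = 0.00115) and by 2.37 ± 0.203 in the VE-labelled line (adjusted p = 0.000167) against the N-labelled line. Both calls were lost in the methods' analysis of variance with adjustment (adjusted p = 0.0865 and 0.0546). In VE+N minus VE its difference was −0.82 (adjusted p = 0.0415, and 0.14 without VE+N replicate 1, 0.173 without VE replicate 1 and 0.209 without VE replicate 2). Casp1 and Casp12, on either side of Casp4, were thus both higher in the VE+N-labelled and VE-labelled lines than in the N-labelled line.

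Around Il33, Ermp1 was the only one of 10 neighbours called, at −0.45 for the VE+N-labelled (adjusted p = 0.0249) and −0.59 for the VE-labelled line against the N-labelled line, both lost under most single-array removals (without N replicate 2, adjusted p = 0.132 and 0.0653). Around Il13ra2, Lrch2 was the only one called, at 0.47 for the VE+N-labelled line against the N-labelled line (adjusted p = 0.0292), lost without VE+N replicate 2 (adjusted p = 0.126), N replicate 1 (adjusted p = 0.188) or N replicate 2 (adjusted p = 0.0668). All other neighbours of Il33 and Il13ra2 lay between −0.42 and 0.35 in both comparisons with the N-labelled line. The counts called around these 2 genes did not exceed the shares over all genes, 19.1% in VE+N minus N and 15.4% in VE minus N.

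**Figure D3:**
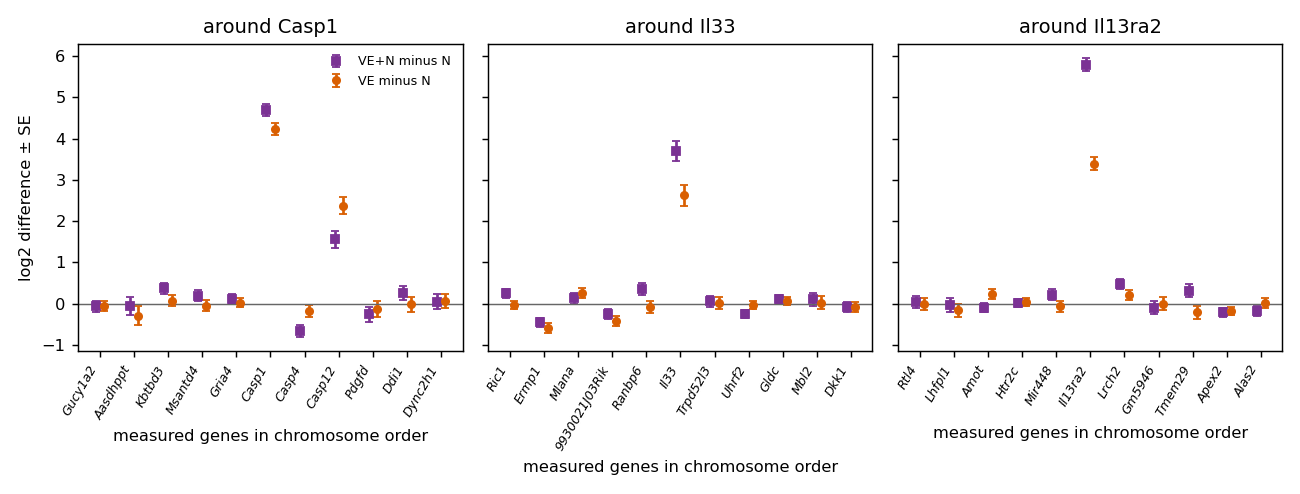
Log2 difference (vertical axis, SE bars) of Casp1, Il33 and Il13ra2 and of the 5 measured genes on each side in chromosome order (horizontal axis), for VE+N minus N (squares) and VE minus N (circles). Casp12, past Casp4, is the only neighbour more than 1 log2 unit from 0.

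The wider pathways were described from lists that hold none of the 9 members. These lists were written with earlier results of these data known, so their shares called are a description. Of 16 measured inflammasome sensors and regulators, 4 rose and 2 fell in VE+N-labelled cells against the N-labelled line, with a median of −0.002, and 1 rose and 2 fell in the VE-labelled line, with a median of 0.02. That is 37.5% called, against 19.1% of all genes, in VE+N minus N and 18.8%, against 15.4%, in VE minus N. Some of these calls were less secure. Nlrp10, a riser in VE+N minus N (0.67, limma adjusted p = 0.0381), was above the low-signal reference on only 1 array. Its call was lost under 4 single-array removals. Txnip, the riser in VE minus N (0.48, limma adjusted p = 0.0151), also lost its call there under 4 single-array removals, but under none in VE+N minus N. The falls were P2rx7, the ATP-gated channel whose opening triggers NLRP3, and Aim2, the sensor of cytosolic DNA. P2rx7 had signals of 4.58 and 4.23 on the VE+N-labelled arrays, 4.65 and 4.54 on the VE-labelled arrays, and 6.92 and 6.99 on the N-labelled arrays. It was near the low-signal reference where Casp1 was high. It fell by 2.55 ± 0.133 in the VE+N-labelled (adjusted p = 8.06e-06) and fell by 2.36 ± 0.133 in the VE-labelled line (adjusted p = 2.03e-05). Aim2 had signals of 7.31 and 7.58 on the VE+N-labelled arrays, 7.08 and 7.11 on the VE-labelled arrays, and 8.51 and 8.72 on the N-labelled arrays. It fell by 1.17 ± 0.128 (adjusted p = 0.000444) in the VE+N-labelled and fell by 1.52 ± 0.128 (adjusted p = 0.000153) in the VE-labelled line, and P2rx7 and Aim2 stayed called whichever array was left out. The largest rise of the list was Txnip, a thioredoxin-binding protein that can engage NLRP3, by 0.96 ± 0.102 in the VE+N-labelled line (adjusted p = 0.000391).

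Of 12 other caspases, gasdermins and executors of lytic cell death, Casp12 was the only riser against the N-labelled line in either comparison, and 1 (Mlkl, the executor of necroptosis) fell in the VE+N-labelled line, by 0.37 ± 0.106 (adjusted p = 0.0428, lost under 5 of 6 single-array removals). Of the list, 16.7% were called in VE+N minus N, against 19.1% of all genes, and 8.33% in VE minus N, against 15.4%. Of 4 other ligands of the IL-1 family, Il1a, Il1b, Il1rn and Il1f10, none was above the low-signal reference on any array and limma called 0 in any comparison, and at an unadjusted p under 0.05 the count was 1 (Il1b in VE minus N). That Il1b difference was 0.35 ± 0.139 (limma adjusted p = 0.147). Il1b, the main substrate of caspase-1, had signals of 3.75 and 3.35 on the VE+N-labelled arrays, 3.68 and 3.76 on the VE-labelled arrays, and 3.37 and 3.36 on the N-labelled arrays. Of 9 other receptors and decoys of the family, 2 rose and 0 fell in VE+N minus N, and 1 rose and 0 fell in VE minus N, which is 22.2% called, against 19.1% of all genes, and 11.1%, against 15.4%. Il18bp, a secreted protein that binds and blocks IL-18, rose by 0.70 ± 0.103 in the VE-labelled line (limma adjusted p = 0.0027). In VE+N minus N the risers were Il18bp, by 0.43 (limma adjusted p = 0.0224), and Sigirr, by 0.49 (limma adjusted p = 0.0117). Both of these calls were lost in the methods' analysis of variance with adjustment (adjusted p = 0.0717 and 0.0543). The IL-18 receptor genes Il18r1 and Il18rap were under the reference on all 6 arrays.

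Genes that carry signals from IL-1 family receptors were present in all lines. All 23 measured MyD88 and NF-kB genes were above the low-signal reference on all 6 arrays. Of these, 2 rose and 2 fell in VE+N-labelled cells against the N-labelled line (17.4% called, against 19.1% of all genes), and 2 rose and 3 fell in the VE-labelled line (21.7% called, against 15.4%). Irak3, a kinase homologue that restrains MyD88 signalling, had signals of 6.43 and 6.79 on the VE+N-labelled arrays, 6.04 and 5.84 on the VE-labelled arrays, and 5.15 and 5.38 on the N-labelled arrays. It rose by 1.34 ± 0.151 in the VE+N-labelled line (adjusted p = 0.000523, and 0.0569 in the methods' analysis of variance with adjustment), and its rise of 0.67 in the VE-labelled line (adjusted p = 0.0204) was lost under 3 of 6 single-array removals. Nfkbie, an inhibitor of NF-kB, fell by 1.18 ± 0.096 in the VE+N-labelled (adjusted p = 9.58e-05) and fell by 0.92 ± 0.096 in the VE-labelled line (adjusted p = 0.000466), while Nfkbia, another inhibitor, rose by 0.68 ± 0.101 in the VE+N-labelled line (adjusted p = 0.00222).

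IL-13Rα2 shares its ligand with a signalling receptor. Of 12 measured type 2 cytokines and receptors, 2 rose and 1 fell in VE+N-labelled cells, and 3 rose and 2 fell in the VE-labelled line, against the N-labelled line. The shares called were 25%, against 19.1% of all genes, in VE+N minus N and 41.7%, against 15.4%, in VE minus N. Il4ra encodes the chain shared by the IL-4 and IL-13 receptors, and it had signals of 9.89 and 9.996 on the VE+N-labelled arrays, 9.57 and 9.37 on the VE-labelled arrays, and 8.51 and 8.42 on the N-labelled arrays. It rose by 1.47 ± 0.111 in the VE+N-labelled (adjusted p = 6.16e-05) and by 1.00 ± 0.111 in the VE-labelled line (adjusted p = 0.000641). Stat6, the transcription factor downstream of that chain, rose by 1.33 ± 0.0964 (adjusted p = 5.01e-05) and by 0.97 ± 0.0964 (adjusted p = 0.000365) in the same comparisons. The line means of both genes ran in the order of those of Il13ra2, and neither call against the N-labelled line was lost when any 1 array was left out. The step between the VE+N-labelled and VE-labelled lines was less secure. It was 0.47 for Il4ra (limma adjusted p = 0.0343), a call lost whichever array was left out, and 0.36 for Stat6, which was not called (limma adjusted p = 0.0549).

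Il13ra1, the chain that pairs with IL-4Rα to signal for IL-13, went its own way. It had signals of 3.67 and 3.13 on the VE+N-labelled arrays, 5.87 and 5.85 on the VE-labelled arrays, and 3.25 and 3.23 on the N-labelled arrays. The VE-labelled arrays were the only ones above the low-signal reference, at least 3.09-fold higher than the N-labelled and at least 3.08-fold higher than the VE+N-labelled arrays. The fitted difference was 2.62 for VE minus N (adjusted p = 3.54e-05) and −2.46 for VE+N minus VE (adjusted p = 9.91e-05), the second lost in the methods' analysis of variance with adjustment (adjusted p = 0.0614). Il13ra2 was thus far above the reference in the VE+N-labelled line, where Il13ra1 was under it. Probe sets differ in brightness, so a signal under the reference does not show that the Il13ra1 transcript was absent. Il13 itself lay between 4.45 and 4.57 on all arrays, a little above the reference, and was not called in any comparison, and Il4, which was under the reference on all arrays, was called lower in the VE-labelled than the N-labelled line by −0.44 (adjusted p = 0.0427).

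Of 9 measured IRF and STAT factors, 1 rose and 2 fell in VE+N-labelled cells, and 3 rose and 1 fell in the VE-labelled line, against the N-labelled line. The shares called were 33.3%, against 19.1% of all genes, in VE+N minus N and 44.4%, against 15.4%, in VE minus N. The calls of Irf9 (−0.56) in VE+N minus N and of Stat3 (0.53) and Stat2 (0.44) in VE minus N were less secure. Each was lost under several single-array removals and in the methods' analysis of variance with adjustment (adjusted p = 0.194, 0.0783 and 0.123). Irf1, an interferon-induced activator, had signals of 8.32 and 8.29 on the VE+N-labelled arrays, 8.50 and 8.36 on the VE-labelled arrays, and 7.17 and 7.40 on the N-labelled arrays. It rose by 1.02 ± 0.116 (adjusted p = 0.000572) and 1.15 ± 0.116 (adjusted p = 0.000403) in those comparisons. Irf8, another factor of the family, fell by 0.78 ± 0.12 (adjusted p = 0.00277) in VE+N-labelled cells and fell by 0.74 ± 0.12 (adjusted p = 0.00435) in the VE-labelled line, both lost in the methods' analysis of variance with adjustment (adjusted p = 0.0668 and 0.0836). Limma called 0 of the 9 in VE+N minus VE, where Stat2 (unadjusted p = 0.0059 by limma) and Stat3 (unadjusted p = 0.0413 by limma) were under 0.05 before adjustment.

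**Figure D4:**
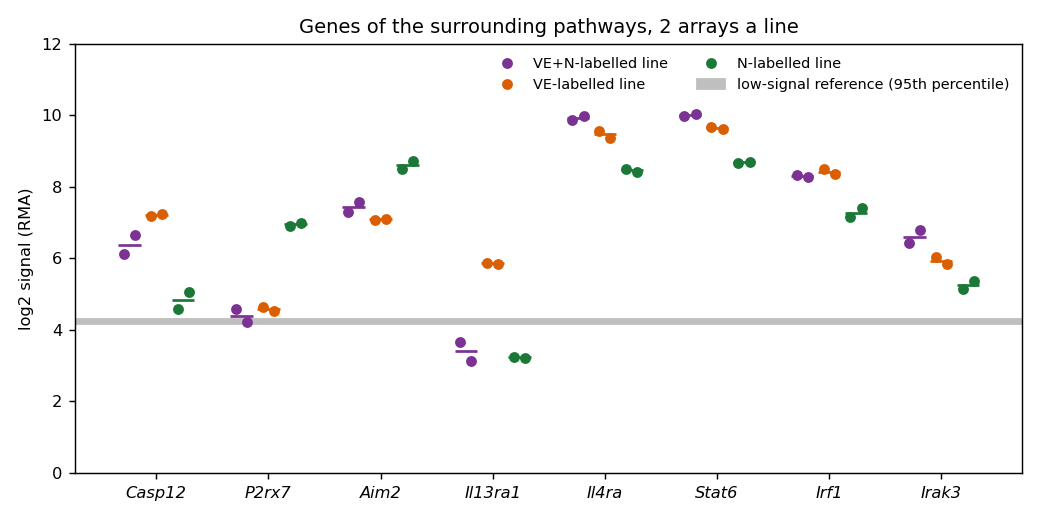
Log2 signal of 8 genes from the surrounding lists on each array (points), with the mean of each line (bars) and the low-signal reference (grey band). P2rx7 and Aim2 are lower in the VE+N-labelled and VE-labelled lines, Il4ra, Stat6, Irf1 and Irak3 are higher there, and Il13ra1 is above the band in the VE-labelled line alone.

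Marker lists were set beside these values. The mean level of the 14 endothelial markers was 10.5 to 10.7 in the VE+N-labelled, 9.96 to 9.99 in the VE-labelled and 9.77 in the N-labelled line. In VE+N minus N 6 rose and 1 fell, with a median difference of 0.19, and in VE minus N 3 rose and 3 fell, with a median of −0.16, against −0.02 over all genes. The list's share called was 50%, against 19.1% of all genes, in VE+N minus N and 42.9%, against 15.4%, in VE minus N. The risers in VE minus N were Cldn5 (3.02), Vwf (1.41) and Flt1 (0.93), and the same genes differed by 5.44, 4.13 and 0.92 in VE+N minus N. The fallers in VE minus N were Robo4 (−0.69), Emcn (−0.38) and Pecam1 (−0.36), which differed by −0.42, −0.23 and −0.15 in VE+N minus N. The part of these endothelial markers in the members' differences was not tested. Of 12 myeloid markers, 3 were above the low-signal reference on both arrays of the VE+N-labelled, 4 of the VE-labelled and 5 of the N-labelled line. Ptprc, Adgre1, Spi1, Lyz2, Itgam and Aif1 were under it on all 6 arrays, Csf1r (4.77 to 5.15) and Cd68 were above it on all 6, and Cd14 and Tyrobp on 5. Cd68, a lysosomal protein, had signals of 8.62 and 8.74 on the VE+N-labelled arrays, 10.19 and 9.80 on the VE-labelled arrays, and 11.55 and 11.56 on the N-labelled arrays. The mean level of the list was 4.08 to 4.09 in the VE+N-labelled, 4.19 to 4.23 in the VE-labelled and 4.39 to 4.46 in the N-labelled line, and its median difference was −0.10 in VE+N minus N and −0.17 in VE minus N. Of 9 mast cell and basophil markers, cells that respond to IL-33, 2, 2 and 3 were above the reference on both arrays of the VE+N-labelled, VE-labelled and N-labelled line, with 6 of the 9, among them Cpa3, Ms4a2 and Fcer1a, under it on all. Kit, the stem cell factor receptor, had signals of 5.07 and 5.19 on the VE+N-labelled arrays, 5.92 and 5.97 on the VE-labelled arrays, and 9.73 and 9.76 on the N-labelled arrays. Hdc, which makes histamine, was above the reference on all 6 and rose by 0.54 in VE+N minus N (limma adjusted p = 0.0126). The part of these myeloid and mast cell markers in the members' differences was not tested.

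Most fibroblast markers, in contrast, were highest in the VE-labelled line. Their mean level was 4.37 to 4.42 in the VE+N-labelled, 6.57 in the VE-labelled and 5.23 to 5.27 in the N-labelled line, and 6 of 8 rose and 1 fell in VE minus N while 0 rose and 7 fell in VE+N minus VE. Of the 8, 4 were above the low-signal reference on both arrays of the VE+N-labelled, 6 of the VE-labelled and 7 of the N-labelled line. The faller in VE minus N was Fap, at 3.71 and 3.51 on the VE-labelled and 5.28 and 5.21 on the N-labelled arrays. Lum, a riser in VE minus N, was under the reference on all 6 arrays. Col1a1, a fibrillar collagen, had signals of 6.39 and 5.99 on the VE+N-labelled arrays, 9.68 and 9.72 on the VE-labelled arrays, and 6.33 and 6.28 on the N-labelled arrays. Il13ra1 and Casp12 were highest in that same line, and the part of these markers in those results was not tested.

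Genes with the profile most like each of the 3 high members were found by the root mean square difference between profiles over the 6 arrays, after each gene's own mean was taken off. For Casp1 the nearest was Stab2, a scavenger receptor of sinusoidal endothelium, at 0.19 log2 units, followed by Mdga2, the UDP receptor gene P2ry6, the fatty acid binding protein gene Fabp4 and the small GTPase gene Mras at 0.41 to 0.50. For Il33 the nearest was the glycine receptor subunit gene Glrb at 0.25, followed by Zfp521, the epoxide hydrolase gene Ephx1, the aryl hydrocarbon receptor repressor gene Ahrr and Rgs2, at 0.26 to 0.28. For Il13ra2 it was the tight junction gene Cldn5 at 0.20, followed by Prelp, Rp1, the urea transporter gene Slc14a1 and Rassf9 at 0.36 to 0.62. The distance was 0.70 between Casp1 and Il33, 0.79 between Casp1 and Il13ra2 and 0.88 between Il33 and Il13ra2. The members were eligible for these lists of 5, and none of the 3 was among the genes nearest to another. The genes above were picked as the nearest, so these distances are only a description. With 3 lines of 2 arrays, such a likeness rests mainly on 3 line means.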

How the data were processed

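Log2 values of 35556 probe sets on 6 arrays were deposited; per the submitters' processing notes the authors made them with RMA in Partek 6.3, a method that corrects background, quantile-normalizes arrays and summarises probe sets. The range of the values gave the log2 scale, and the genome build is not given in the sources used here. Probe sets with 1 symbol (21789) gave 19936 genes after symbols were updated by Entrez identifier; 12146 probe sets had no symbol and 1621 several. No filter on signal was applied. Array medians ran from 4.85 to 4.91. Precision is limited by the number of arrays.

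Differences (VE minus N, VE+N minus N, VE+N minus VE) came from 1 limma model (version 3.58.1, R 4.3.3) of all 6 arrays, with Benjamini-Hochberg adjustment over all genes and calls at adjusted p below 0.05. The model was tested on simulated data. Members, lists, tests and motifs were chosen with earlier results of these data known. Named are the members, Cdh2 and Cdh5, the called genes of each list that changed most (at most 4), and 5 genes of like profile (predicted genes left out); neighbours, Il1b, Il13, Il4, Il18r1, Il18rap and markers named by value were added after their values were seen. Samples were grouped by the line in their titles. Alternatives were a fit on 4 arrays, a replicate block, median centring, repeated quantile normalization, dropping the dimmest 25% or 50% of genes, averaging probe sets, a trended robust prior, the methods' analysis of variance, and leaving out each array. Replicate numbers did not pair the samples by the labels; the correlation of replicate differences between lines was −0.005 to 0.123.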

Additional observations from a re-analysis of the deposited data

How the results depend on the processing

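The replicate block changed no call among the tested members and left the counts of called genes at 3056 for VE minus N, 3864 for VE+N minus N and 2055 for VE+N minus VE, and the samples share only a number. Among the named pathway genes it ended 1 call, that of Mlkl in VE+N minus N (adjusted p = 0.0543). The number of tested members called was 0 in VE+N minus N with the methods' analysis of variance, under either threshold, and 1 in VE+N minus VE with the dimmest 50% of genes left out or a trended robust prior. With 1 array left out it lay between 0 and 1 in VE minus N and in VE+N minus N, and was 0 in VE+N minus VE. The number of called genes was 1276, 1867 and 311 (VE minus N, VE+N minus N, VE+N minus VE) with the methods' analysis of variance and adjustment, and 751, 909 and 493 at its own p and 2-fold threshold, against 3079, 3802 and 2020. With 1 array left out it ran from 1688 to 3356, from 2243 to 3800 and from 966 to 2049; a lone array is then assumed to vary like the other lines, and fewer samples remain. Casp1, Il33 and Il13ra2 kept their direction in every comparison and alternative. They were chosen by these differences, and their lines do not overlap, so leaving out 1 array could not turn a direction. That result is therefore a description and no test. Of 43 calls of named pathway genes, 23 held whichever array was left out, 11 of 17 in VE minus N, 11 of 18 in VE+N minus N and 1 of 8 in VE+N minus VE, and none changed direction. Under every alternative together 11 held, 5, 6 and 0 in that order, and the methods' analysis of variance with adjustment ended 27 of the 43. Pycard, Nlrp3 and Il18 were under the low-signal reference on all arrays, and the N-labelled values of Casp1 too, so small differences there are not resolved.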
